A study of Arabidopsis thaliana with 12 samples.

Results

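Iron shortage in Arabidopsis thaliana switches on a small circuit of transcription factors, signalling peptides and root uptake proteins, and the levels of 10 of its genes are described here out of 33602 loci measured. They are the subgroup Ib basic helix-loop-helix (bHLH) factors BHLH38, BHLH39, BHLH100 and BHLH101, their partner FIT, the uptake genes IRT1 and FRO2, and the IMA (IRON MAN) peptide genes AT1G47400, AT1G47395 and AT2G30766. They were taken by locus code, and all 10 were found. The set was chosen by role in the pathway and by low RPKM values seen earlier in these same columns, so its values are a description and carry no test. Of the 14079 loci with a mean of at least 5 RPKM, 8 are among the 10.

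In this pathway FIT pairs with a subgroup Ib bHLH protein, and the pair activates genes of the root epidermis. FRO2 reduces ferric iron at the root surface, and IRT1 carries the ferrous iron into the cell. IMA peptides are short, rich in aspartate, act upstream of the Ib factors, and interfere with BTS, an E3 ligase that marks regulators of the response for degradation.

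RNA was sequenced from whole 11-day-old seedlings of accession Columbia, grown in continuous light on half-strength MS medium with 2% sucrose, for a comparison of nonsense-mediated decay (NMD) mutants with wild type. NMD destroys mRNAs whose translation stops too early. The 12 libraries fall into 6 groups of 2. Untreated groups were the wild type, then lba1 (genotype upf1-/- in the labels, a point mutant of the NMD helicase UPF1), upf3-1 (upf3-/-, a mutant of its partner UPF3) and lba1 upf3-1 with both mutations, called the double mutant below. The other 2 groups were wild type held for 4 h in liquid MS medium, called mock, and wild type held for 4 h in that medium with 10 µg/ml cycloheximide. Cycloheximide blocks translation, on which NMD depends. No label gives a change in iron supply for any group. The growth medium and the liquid medium of the 4 h incubation differed, however, and the iron content of neither is given here. In mock against wild type, the change of medium and the handling cannot be told apart.

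The authors deposited 1 RPKM column per group (read density per kilobase, made relative to sequencing depth), so no spread between libraries can be given, and no difference has a replicate check or a p-value. Whole-read steps in low values among 623 transfer RNA loci implied totals of 83.1 to 91.4 M reads per column. The intervals below are 95% counting intervals from these totals and reference exon lengths. They cover counting error only. The transcript of UPF3 itself stood at 13.1 RPKM in wild type and 22.2 in lba1, and at 4.95 and 4.82 where upf3-1 was present. The 3 mutants and mock share the wild type column, and cycloheximide shares the mock column, so the comparisons are not independent.

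The 3 IMA genes are shown first because their coding sequences show how far their reads can be told apart. Sequences come from RefSeq, build TAIR10.1, 5′ to 3′ on the plus strand, at chr1:17385818-17385970, chr1:17383117-17383269 and chr2:13108068-13108211. Capitals mark the last 54 bases, which hold 17 codons and the stop codon and encode the end of the peptide that the family shares.
AT1G47400: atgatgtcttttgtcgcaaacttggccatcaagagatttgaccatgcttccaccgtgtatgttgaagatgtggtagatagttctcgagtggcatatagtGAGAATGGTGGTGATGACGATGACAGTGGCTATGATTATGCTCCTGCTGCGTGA
AT1G47395: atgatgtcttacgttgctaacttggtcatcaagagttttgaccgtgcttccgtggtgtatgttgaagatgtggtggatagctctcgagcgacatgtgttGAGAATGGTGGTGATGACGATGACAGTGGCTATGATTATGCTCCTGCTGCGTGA
AT2G30766: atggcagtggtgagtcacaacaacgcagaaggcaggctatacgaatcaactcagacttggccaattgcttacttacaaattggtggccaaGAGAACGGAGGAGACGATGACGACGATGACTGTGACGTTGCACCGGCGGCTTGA

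AT1G47400 and AT1G47395, neighbours on chromosome 1 with 153 coding bases each, had the same base at 54 of the 54 capital positions and at 136 of 153 positions of the coding sequence. AT2G30766, with 144 coding bases, matched either of them at 37 of the 54. Aspartate codons number 5, 5 and 7 in the capital stretch. The neighbours differ outside it, and only 24 of the 798 stretches of 36 bases in the exons of AT1G47395 occur in those of AT1G47400. Between the 4 Ib bHLH genes no such stretch was shared. Their coding identity ran from 50.4% between BHLH100 and BHLH101 to 83.1% between BHLH38 and BHLH39, which lie side by side on chromosome 3.

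The 300 bases before the annotated start of each gene were searched for CACGTG and for CANNTG, which includes it. Both read the same on either strand. CACGTG was present in 2 of the 10 members and in 7.09% of 27443 protein-coding genes, and CANNTG in 7 of the 10 and in 61.9%. The windows with CACGTG, in capitals below, belong to the Ib bHLH genes BHLH38 (chr3:21085325-21085354, minus strand) and BHLH100 (chr2:17199528-17199557, minus strand), in TAIR10.1. The motif starts 97 and 91 bases before the annotated start.
BHLH38: cataggcttcgaCACGTGccaacctatgcc
BHLH100: aaagtgctcaacCACGTGtcaacgcatgtc

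Across the 6 columns the median level of the 10 genes was 27.9 RPKM in untreated wild type and 22.8 in lba1, then 4.30 in upf3-1 and 3.76 in the double mutant, and 0.346 in mock and 1.25 with cycloheximide. Only IRT1 and FRO2 followed that order of medians in full. FIT and, with cycloheximide, AT1G47400 and AT1G47395 departed from it. The other genes had swaps between neighbouring columns, some of them within counting error. Wild type was the highest column for 7 of the 10 genes, lba1 for 2 and cycloheximide for 1. Mock was the lowest column for 6, cycloheximide for 3 and the double mutant for 1. No share over all genes was computed for these counts, so nothing is read from them. BHLH39 (lba1 above wild type) and BHLH101 (cycloheximide below mock) were placed by less than counting error. In these whole-seedling libraries, fewer cells of a type and less RNA per cell cannot be told apart.

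**Figure D1:**
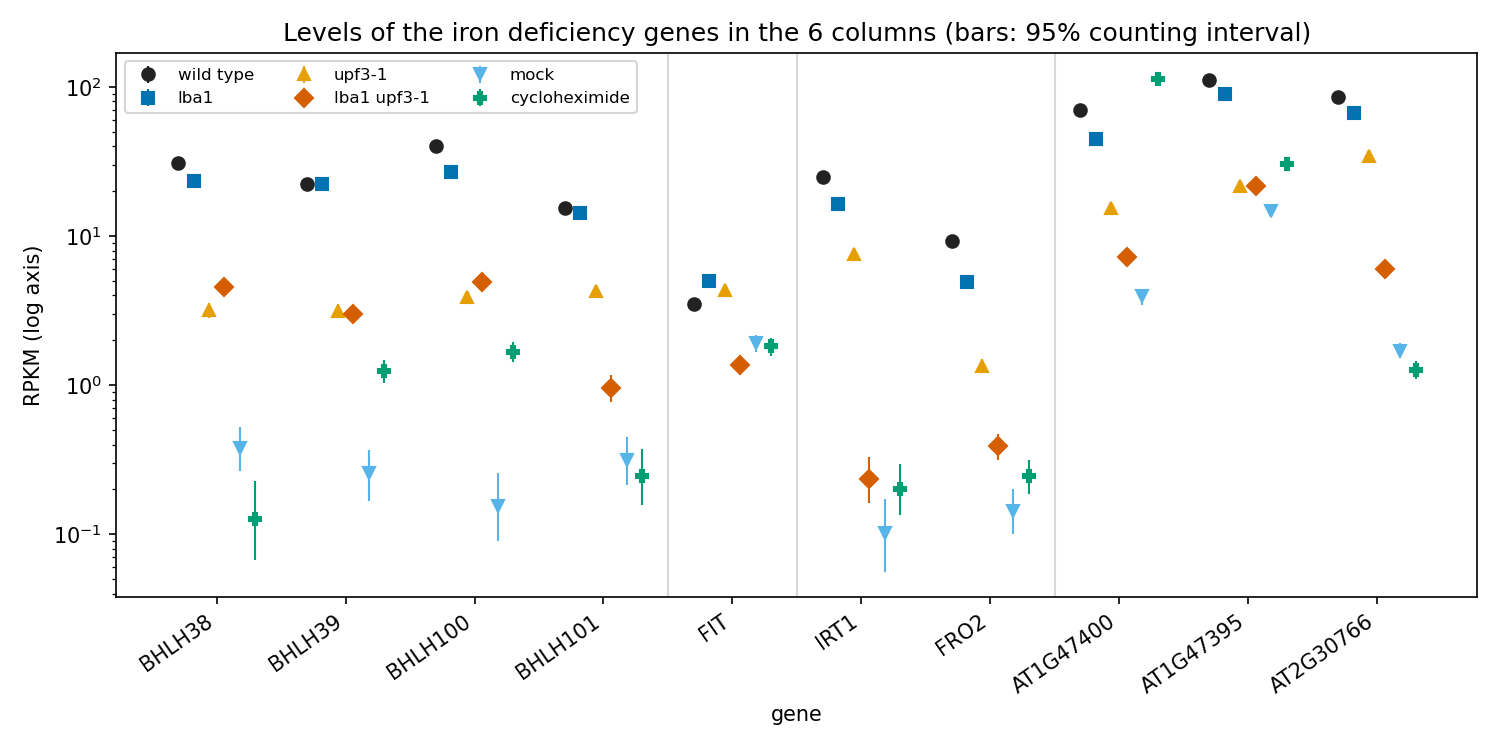
RPKM of each of the 10 genes (x axis) in the 6 columns (y axis, log scale; symbols by column, bars the 95% counting interval). Wild type and lba1 are at the top for every gene except FIT and AT1G47400, which reached 113 RPKM with cycloheximide.

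The Ib bHLH factors come first. BHLH38 was at 30.7 RPKM in untreated wild type and 23.4 in lba1, at 3.18 in upf3-1 and 4.54 in the double mutant, and at 0.378 in mock and 0.126 with cycloheximide. BHLH39 was at 22.2, 22.3, 3.16, 2.99, 0.256 and 1.24 RPKM in the same order. Both genes were thus within 2-fold of wild type in lba1, well below wild type in both upf3-1 columns, and close to nothing after liquid incubation. BHLH100 was at 40.4 RPKM in untreated wild type and 26.7 in lba1, at 3.89 in upf3-1 and 4.93 in the double mutant, and at 0.156 in mock and 1.66 with cycloheximide. BHLH101 was at 15.3, 14.4, 4.27, 0.964, 0.315 and 0.247 RPKM in that order. Among the Ib genes, it alone was lower in the double mutant than in upf3-1 by more than counting error.

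Neighbouring columns of BHLH39 could not be separated by counting error for lba1 and wild type or for upf3-1 and the double mutant. The same held for BHLH101 between wild type and lba1 and between mock and cycloheximide. The sum of the 4 genes was 109 RPKM in untreated wild type and 86.8 in lba1, then 14.5 in upf3-1 and 13.4 in the double mutant, and 1.10 in mock and 3.28 with cycloheximide. Their proportions moved as well. BHLH38 made up 28.3% of the sum in wild type and 3.84% with cycloheximide, where BHLH39 and BHLH100 made up 37.9% and 50.7%.

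For BHLH38, 35.7% of exon bases lie opposite AT3G56960, and the library kit does not mark strand, so reads there cannot be told apart. AT3G56960 itself was at 2.71 RPKM in wild type, 2.72 in upf3-1 and 2.01 in mock. It stayed between 0.795 and 4.59 RPKM over the 6 columns. For BHLH101, 7.29% of exon bases lie under AT5G04140, which was at 368 RPKM in wild type, 276 in upf3-1, 8.97 in the double mutant and 115 in mock. By approximate reads, BHLH101 had 423 in upf3-1 and 93 in the double mutant, beside 138740 and 4397 for AT5G04140. The part of AT5G04140 in the values of BHLH101, and in its difference between those 2 columns, was not tested.

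Among the IMA peptide genes, AT1G47400 was at 70.04 RPKM in untreated wild type and 44.7 in lba1, at 15.4 in upf3-1 and 7.26 in the double mutant, and at 3.94 in mock and 113 with cycloheximide. AT1G47395 was at 111, 90.1, 21.5, 21.7, 14.8 and 30.4 RPKM in the same order. AT2G30766 was at 86.1, 66.9, 34.2, 5.98, 1.71 and 1.26 RPKM. All 3 were highest in wild type among the untreated columns, and they parted from one another with cycloheximide, where AT1G47400 exceeded its untreated level and AT2G30766 stayed at its lowest value. AT1G47395 had the narrowest range, 7.54-fold from highest to lowest column, against 28.6-fold for AT1G47400 and 68.3-fold for AT2G30766.

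AT1G47395 in upf3-1 and in the double mutant differed by less than counting error. AT2G30766 has 20.5% of its exon bases in the reference under 2 loci on the opposite strand. One of these, AT2G30770, was at 83.9 RPKM in the double mutant and 6.47 in wild type, and the reads of the overlap cannot be told apart between them.

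FIT, the partner of the Ib factors, was at 3.51 RPKM in untreated wild type and 4.98 in lba1, at 4.33 in upf3-1 and 1.37 in the double mutant, and at 1.91 in mock and 1.82 with cycloheximide. Its range of 3.63-fold was the smallest of the 10 genes. IRT1, the ferrous iron transporter, was at 25.1 RPKM in untreated wild type and 16.5 in lba1, at 7.60 in upf3-1 and 0.236 in the double mutant, and at 0.102 in mock and 0.202 with cycloheximide, a range of 246-fold. FRO2, the ferric chelate reductase, was at 9.29, 4.91, 1.35, 0.389, 0.143 and 0.245 RPKM. Both uptake genes had the same order of columns, with wild type first, then lba1 and upf3-1, and mock last, while FIT was above wild type in both single mutants. The double mutant and cycloheximide values of IRT1, and the mock and cycloheximide values of FIT, differed by less than counting error.

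Differences between columns were computed on log2(RPKM + 0.5), which understates the change of low genes, and a gene is called higher or lower where the columns are 2-fold or more apart. Of the 10 genes, 8 had a mean of at least 5 RPKM, the limit for the 14079 genes that give the background shares. FIT and FRO2 did not, and their values are given beside the counts. The other 8 pass that limit largely through the wild type and lba1 columns. These are the reference side of several comparisons below, which favours calls of lower there. The counts thus describe these genes and support nothing further. Relative folds below are ratios of RPKM.

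In lba1 all 10 genes were within 2-fold of wild type, and only BHLH39 and BHLH101 differed from it by less than counting error. None of the 8 genes was lower or higher by the 2-fold rule, where 1.93% of all genes were lower and 4.77% higher. FRO2, outside the 8, was nearest to the limit at −0.86, a ratio of 1.89-fold lower (interval 1.76 to 2.03). AT1G47400 and IRT1 were at −0.64 and −0.59, and FIT was above wild type at 0.45. Of the 10 genes, 8 had negative differences, with a median of −0.37 beside 0.08 over all genes.

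In upf3-1 all 8 counted genes were lower, where 0.547% of all genes were lower and 3.81% higher. This contrast was in view when the genes were chosen, so nothing is read from the count. BHLH100 and BHLH38 were lowest, 10.4-fold (interval 9.38 to 11.5) and 9.65-fold (8.58 to 10.9) below wild type, at log2 −3.22 and −3.08. BHLH39 was 7.02-fold and BHLH101 3.60-fold lower. IMA genes ranged from AT1G47395, 5.17-fold lower (interval 4.90 to 5.45), to AT2G30766, 2.52-fold lower (2.44 to 2.59). FRO2 was 6.89-fold lower (interval 6.16 to 7.74) and IRT1 3.30-fold lower (3.08 to 3.53). FIT alone was higher than wild type, 1.24-fold (1.09 to 1.41). The median of the 10 was −2.25, beside 0.05 over all genes.

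**Figure D2:**
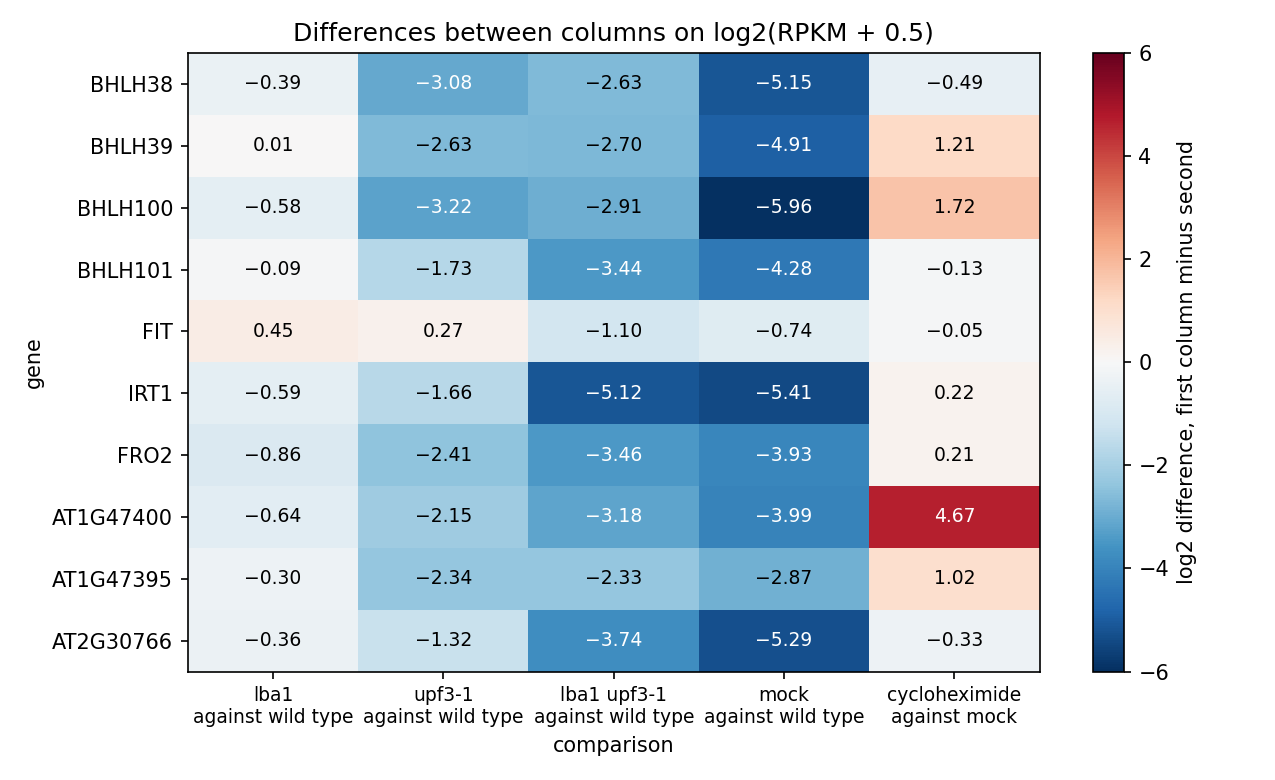
Differences on log2(RPKM + 0.5), first column minus second, for the 10 genes (y axis) in 5 comparisons (x axis), with each value printed in its cell and blue for lower. Cells of upf3-1, the double mutant and mock are blue for every gene except FIT in upf3-1, and AT1G47400 stands out at 4.67 for cycloheximide against mock.

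With both mutations present, all 8 counted genes were lower than in wild type, where 21.2% of all genes were lower and 22.1% higher. FRO2 (−3.46) and FIT (−1.10) were lower by the same rule, FIT no longer so with a pseudocount of 1 (−0.93) or quantile normalization (−0.99). IRT1 was lowest, 106-fold below wild type (interval 75.3 to 154), followed by FRO2 at 23.9-fold (19.5 to 29.5), BHLH101 at 15.9-fold (12.9 to 19.9) and AT2G30766 at 14.4-fold (13.5 to 15.3). BHLH38, BHLH39 and BHLH100 were 6.76-fold, 7.42-fold and 8.19-fold lower, AT1G47400 and AT1G47395 9.64-fold and 5.12-fold, and FIT 2.56-fold (2.13 to 3.07). The median of the 10 was −3.05, beside 0.12 over all genes.

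Set directly against upf3-1, the double mutant split the circuit. Of the 8 counted genes 4 were lower, where 20.9% of all genes were lower and 16.6% higher. IRT1 was 32.2-fold lower (interval 22.7 to 46.9), AT2G30766 5.72-fold lower (5.36 to 6.11) and BHLH101 4.43-fold lower (3.54 to 5.62). FRO2 and FIT, outside the 8, were 3.47-fold and 3.16-fold lower, and AT1G47400, the fourth of the 8, was 2.12-fold lower (1.91 to 2.36). With a pseudocount of 1 the differences of AT1G47400 (−0.99) and FRO2 (−0.76) were under the limit. At that setting 3 of the 8 were lower, where 20.2% of all genes were. With quantile normalization FRO2 (−0.87) was under the limit. BHLH38 was instead 1.43-fold higher (1.23 to 1.65) and BHLH100 1.27-fold higher (1.11 to 1.45), and BHLH39 and AT1G47395 differed by less than counting error.

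Against lba1, all 8 counted genes were lower in the double mutant, where 22.1% of all genes were lower and 17.7% higher. FRO2 was at −2.61 and FIT at −1.55. The upf3-1 mutation went with a lower level in both backgrounds for 9 of the 10 genes. FIT was the exception, at 0.27 with UPF1 intact and −1.55 in lba1. No share of all genes lower in both backgrounds was computed. The contrast of upf3-1 with wild type was in view when the genes were chosen, so nothing is read from the count. IRT1 was at −1.66 with UPF1 intact and −4.53 in lba1, AT2G30766 at −1.32 and −3.38, and BHLH101 at −1.73 and −3.35. BHLH39 was at −2.63 and −2.71. FRO2 was at −2.41 and −2.61 on this scale, which compresses its low values, and its ratios were 6.89-fold lower with UPF1 intact and 12.6-fold lower in lba1 (interval 10.3 to 15.6). These pairs of differences rest on 4 separate columns and were not tested against each other.

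Mock seedlings had the largest differences for 9 of the 10 genes among the comparisons with wild type. Mock had all 8 counted genes lower, where 11.9% of all genes were lower and 14.2% higher. BHLH100 was 259-fold lower (interval 157 to 447), IRT1 246-fold (146 to 448), BHLH39 86.7-fold (59.9 to 133) and BHLH38 81.2-fold (58.1 to 115). FRO2, AT2G30766 and BHLH101 were 65.0-fold, 50.4-fold and 48.7-fold lower. AT1G47400 and AT1G47395 were 17.8-fold and 7.54-fold lower, and FIT 1.84-fold lower (1.56 to 2.17). The median of the 10 was −4.59, beside 0.15 over all genes. BHLH100 rested on 16 reads and IRT1 on 14 in mock, by the approximate totals.

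FIT, the exception, had its largest difference from wild type in the double mutant and the smallest of the 10 in mock. Its targets IRT1 and FRO2 together were at 34.3 RPKM in wild type and 0.245 in mock.

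Cycloheximide against mock gave 2 higher genes in the Ib bHLH family and 2 in the IMA family. Of the 8 counted genes 4 were higher and none lower, where 13.3% of all genes were higher and 44.1% lower. With the columns scaled to equal medians those shares were 22.0% and 24.2%, and with quantile normalization 18.2% and 27.5%, and the members called remained 4 and 0. BHLH38, BHLH39, BHLH100, BHLH101 and IRT1 were at 0.378 RPKM or less in mock. On the log2 scale used, even a complete loss could not have called them lower. Nothing is therefore read from the lack of lower members. AT1G47400 was 28.6-fold higher (interval 25.4 to 32.5), at a log2 difference of 4.67. BHLH100 was 10.7-fold higher (6.31 to 18.9), BHLH39 4.86-fold (3.20 to 7.69) and AT1G47395 2.06-fold (1.91 to 2.22). BHLH38 was 3.00-fold lower (1.48 to 6.15) on the ratio and at −0.49 on the log2 scale, where its values of 0.378 and 0.126 RPKM are compressed.

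BHLH101 and FIT did not differ beyond counting error. AT2G30766 was 1.36-fold lower (1.13 to 1.62). IRT1 was 1.98-fold higher (1.01 to 4.10) and FRO2 1.71-fold higher (1.10 to 2.63), both still far below wild type, at 0.202 and 0.245 RPKM. The rise of BHLH39 and BHLH100 also left them at 1.24 and 1.66 RPKM, under their 22.2 and 40.4 in untreated wild type, whereas AT1G47400 reached 113 RPKM against 70.04.

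The median of all 14079 genes was −0.81 in this comparison, and scaling the columns to equal medians moved it to −0.10. Under that scaling, and under quantile normalization, the small negative differences of BHLH101, FIT and AT2G30766 became positive, while the 4 higher genes and the negative sign of BHLH38 stayed as given.

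**Figure D3:**
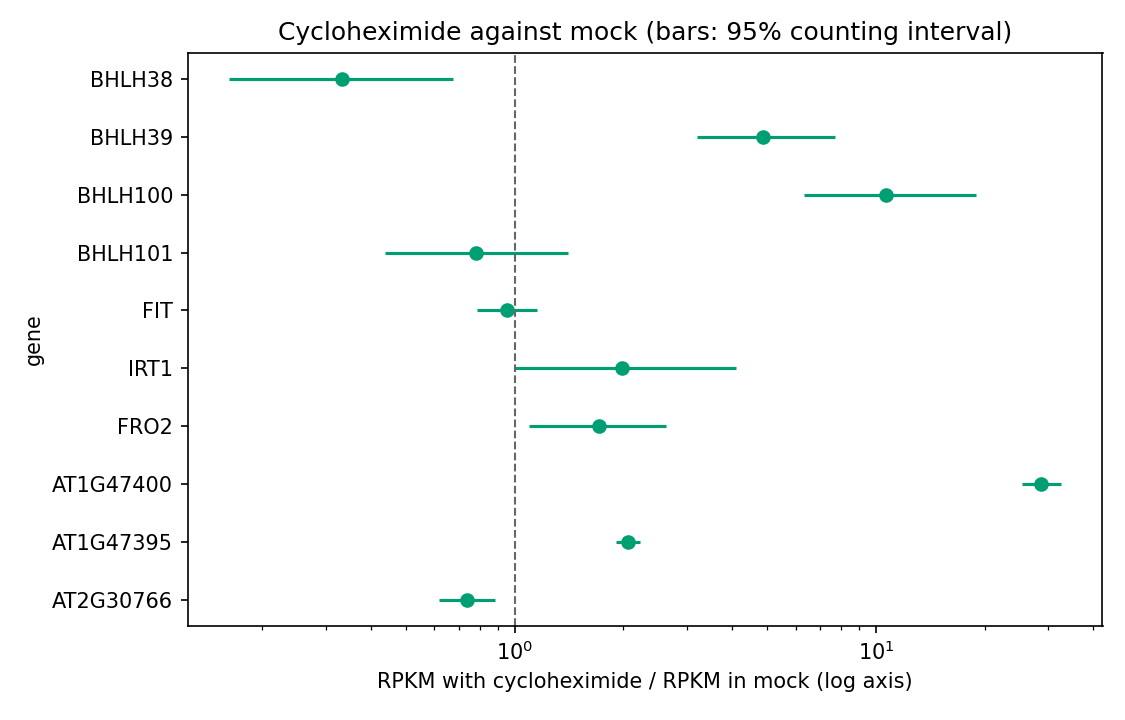
Ratio of RPKM with cycloheximide to RPKM in mock (x axis, log scale) for the 10 genes (y axis), with bars for the 95% counting interval and a dashed line at equal values. AT1G47400 lies at 28.6, BHLH100 at 10.7 and BHLH39 at 4.86, and BHLH38 lies to the left at 0.333.

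The wider pathway was described by 4 lists of iron genes, each over all its members with no filter. The shares to read their counts against are those of the 14079 genes that averaged 5 RPKM or more. They were 3.81% higher and 0.547% lower in upf3-1, 22.1% and 21.2% in the double mutant, and 14.2% and 11.9% in mock. The medians over the same genes were 0.05, 0.12 and 0.15. The list upstream of the Ib factors holds bHLH regulators and E3 ligases. Of its 10 genes, 1 was lower in upf3-1, 1 higher and 1 lower in the double mutant, and 3 lower in mock, with medians of −0.04, 0.07 and −0.65. The bHLH activators ILR3, BHLH104, BHLH34, BHLH115 and URI were not called higher or lower in those 3 comparisons. BHLH104 was at the limit in the double mutant, with 50.7 RPKM against 25.3, a ratio of 2.00 and a log2 difference of 0.99. ILR3 was at 31.9 RPKM in untreated wild type and 36.6 in lba1, at 35.5 in upf3-1 and 34.6 in the double mutant, and at 43.6 in mock and 23.7 with cycloheximide.

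BTS, the E3 ligase with which IMA peptides interfere, was at 55.6 RPKM in untreated wild type and 46.5 in lba1, at 26.6 in upf3-1 and 30.0 in the double mutant, and at 20.003 in mock and 7.85 with cycloheximide. PYE, a bHLH repressor that is itself induced by iron shortage, was at 8.59, 8.95, 5.56, 6.04, 3.99 and 7.07 RPKM. For BTS the other 5 columns were below wild type, lba1 the least, and for PYE lba1 alone was above it. With cycloheximide BHLH104 and BHLH115 were lower than in mock, at −1.60 and −2.19.

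The list of FIT partners and targets held genes called in both directions. Of its 13 genes, 1 was lower in upf3-1, 3 were higher and 5 lower in the double mutant, and 2 were higher and 6 lower in mock, with medians of −0.25, −0.73 and −0.71. The share called higher in the double mutant is close to the 22.1% of all genes. CYP82C4, a cytochrome P450 that modifies secreted coumarins, was at 9.56 RPKM in untreated wild type and 2.85 in lba1, at 0.591 in upf3-1 and 0.424 in the double mutant, and at 0.049 in mock and 0.258 with cycloheximide. Its columns had the same order as those of IRT1. F6'H1, which makes the coumarin precursor, went the other way in the double mutant, at 139 RPKM against 17.5 in wild type. The coumarin exporter gene PDR9 (56.02 against 10.6 RPKM) and the proton pump gene AHA2 (291 against 112) were higher there too.

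AT3G12900, annotated as a 2-oxoglutarate and iron-dependent oxygenase, was at 0.382 RPKM in untreated wild type and 0.090 in lba1, at 0.022 in upf3-1 and 0.008 in the double mutant, and at 0.038 in mock and 21.2 with cycloheximide. The mock value rests on about 5 reads and the cycloheximide value on 2552, a ratio of 558 (interval 225 to 1620). It had the largest difference of cycloheximide from mock among these list genes and the 10 members, at 5.34.

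The next list holds other iron deficiency genes. Of its 7, 3 were lower in upf3-1, 5 in the double mutant and 6 in mock, none was higher in those comparisons, and the medians were −0.85, −1.37 and −2.04. NAS4, a nicotianamine synthase gene, was at 43.7 RPKM in untreated wild type and 21.3 in lba1, at 13.1 in upf3-1 and 6.97 in the double mutant, and at 7.58 in mock and 2.85 with cycloheximide. OPT3, a phloem iron transporter gene, was at 108, 71.9, 49.0, 47.2, 25.9 and 32.2 RPKM. Both were below wild type in the other 5 columns. NAS1, by contrast, was at 75.1 RPKM in upf3-1 and 64.8 in wild type, and at 9.67 in mock.

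Genes of iron storage, among them the ferritins, which are repressed under iron shortage, are the last list. None of the 7 was higher or lower in upf3-1, 5 were lower in the double mutant, and 1 was higher in mock, which for upf3-1 and mock is near the shares of all genes. The ferritin gene FER1 was at 67.7 RPKM in untreated wild type and 15.0 in lba1, at 50.9 in upf3-1 and 37.9 in the double mutant, and at 87.0 in mock and 78.5 with cycloheximide. FER3 was at 30.9, 13.1, 19.8, 8.11, 36.4 and 69.4 RPKM, and FER4 at 19.2, 8.27, 17.1, 6.61, 12.9 and 7.33. All 3 ferritins were below wild type in lba1, where the 10 circuit genes stayed within 2-fold. In mock FER1 and FER3 were above wild type, at 0.36 and 0.23 on the log2 scale, and FER4 was below it at −0.55, all within 2-fold.

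**Figure D4:**
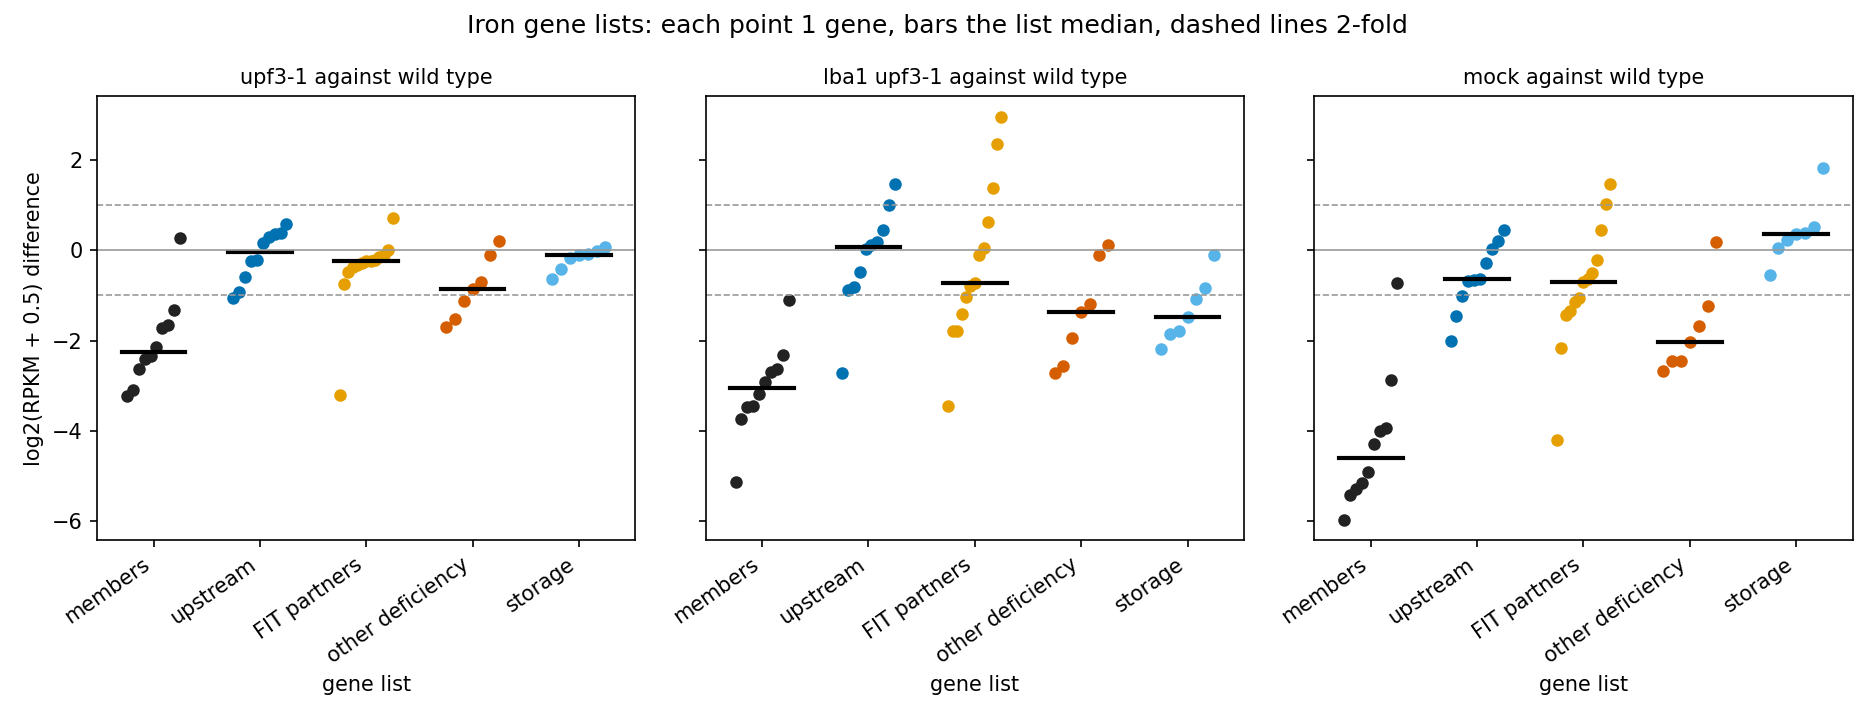
Differences on log2(RPKM + 0.5) (y axis) for each gene of 5 lists (x axis) in 3 comparisons with wild type; bars are list medians and dashed lines mark 2-fold. The median of the 10 members lies at −2.25, −3.05 and −4.59, and that of the 10 upstream regulators at −0.04, 0.07 and −0.65.

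IRT1, FRO2 and FIT act in the root, so root markers were set beside them. The 8 root epidermis markers summed to 37.1 RPKM in untreated wild type, to 51.9 in lba1, to 35.97 in upf3-1, to 2.91 in the double mutant, to 19.3 in mock and to 4.597 with cycloheximide, with none at 0 in any column. The 6 root endodermis markers summed to 15.3, 28.0, 21.1, 4.96, 8.80 and 5.12 RPKM. In upf3-1, where 0.547% of all genes were lower and 3.81% higher, none of the 14 was higher or lower. That count is near those shares. All but 1 marker of each root list averaged under 5 RPKM, where the log2 scale compresses differences. The uptake genes were 3.84-fold lower as a sum in upf3-1, and the epidermis sum was 1.03-fold lower. EXPA7, a root hair expansin gene, was at 3.10 RPKM in wild type and 3.24 in upf3-1, COBL9, another root hair gene, at 1.496 and 1.109, and CASP1 of the endodermis at 6.26 and 8.71.

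In mock, where 11.9% of all genes were lower, 2 of the 8 epidermis and 1 of the 6 endodermis markers were lower, with median differences of −0.02 and −0.65. The sums were 1.92-fold and 1.74-fold below wild type, beside 140-fold for IRT1 and FRO2 and 98.3-fold for the 4 Ib genes. The epidermis sum rests mainly on PRP3, which was at 19.0 RPKM in wild type and 3.07 in mock. EXPA7 was at 4.36 RPKM in mock, COBL9 at 0.798 and CASP1 at 3.97. The part of these markers in the mock values of the uptake genes was not tested. In the double mutant most markers were lower, as the uptake genes were. There, where 21.2% of all genes were lower, 6 of the 8 epidermis markers and 3 of the 6 endodermis markers were lower, the epidermis sum was 12.7-fold below wild type and the endodermis sum 3.09-fold, EXPA7 was at 0.157 RPKM and COBL9 at 0.072, and the part of this in the values of IRT1, FRO2 and FIT was not tested. RHD6 of the epidermis and MYB36 of the endodermis were instead above wild type, at 0.10 and 0.44. These and PRP3 were named after their values were seen. The marker counts carry no filter, unlike the shares of all genes. Low markers are compressed on the log2 scale, so the counts of lower markers may be understated. With cycloheximide 5 of the 8 epidermis markers were lower than in mock, where 44.1% of all genes were lower. The 4 shoot markers summed to 18271 RPKM in wild type, 596 in the double mutant, 8023 in mock and 2346 with cycloheximide, and the mock sum was 2.28-fold below wild type.

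**Figure D5:**
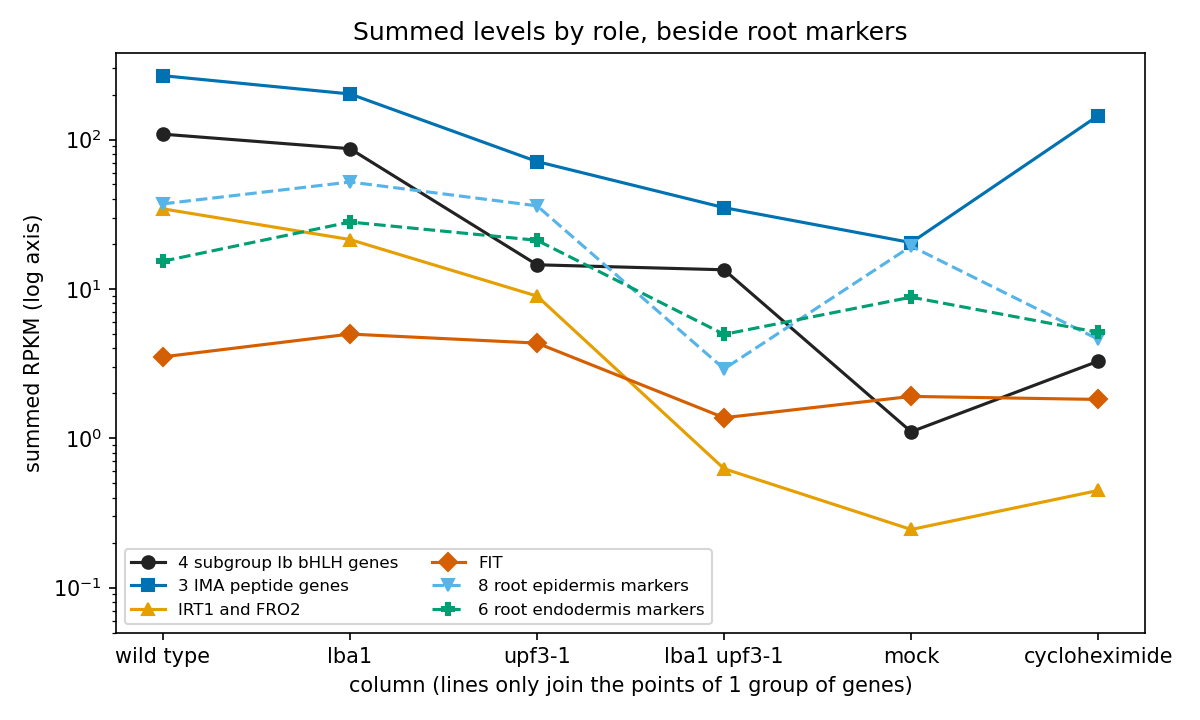
Summed RPKM (y axis, log scale) in the 6 columns (x axis) for the circuit genes by role (solid lines) and for root markers (dashed lines). From wild type to mock the 4 Ib genes go from 109 to 1.10 RPKM and the 8 root epidermis markers from 37.1 to 19.3.

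Profiles across the 6 columns were ranked for genes outside the circuit that averaged 5 RPKM or more. Genes below that limit, such as CYP82C4, were not ranked, while the members were measured whatever their level. Of the ranked genes, SUS4, TBL36, AT5G05250, AT1G60590 and AT4G01390 were most like the mean of the 4 Ib genes. Their distances from it, over centred log2(RPKM + 0.5) values, were 1.63, 1.72, 2.17, 2.19 and 2.19, where the median gene was at 4.66 and the Ib genes themselves at 0.64 to 1.20. The Ib genes make up that mean, so their small distances are partly built in. SUS4, a sucrose synthase gene, was at 14.9 RPKM in untreated wild type and 8.49 in lba1, at 5.89 in upf3-1 and 3.19 in the double mutant, and at 0.543 in mock and 0.592 with cycloheximide. Among the members outside the Ib family FRO2, at 1.57, and AT2G30766, at 1.92, were as near to the Ib mean as these 5 genes. AT1G47400, at 4.71, was as far as the median gene. For the mean of FIT, IRT1 and FRO2 the nearest were CGLD27, AT5G56850, LHCB4.3, AT4G24780 and BGAL1, at 0.95 to 1.12, with the median gene at 3.61. FRO2, itself a part of that mean, was at 0.86, and IRT1 and FIT, at 2.16 and 2.29, were farther from their own mean than these 5 genes. These distances rest on 6 columns and describe likeness of pattern alone.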

How the data were processed

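TruSeq libraries were made from total RNA of 12 seedling samples, per the labels' protocols. The authors deposited RPKM values for 33602 loci in 1 column per group of 2 libraries. The submitters' processing notes name the build TAIR10. Which aligner, counting rules and gene lengths were used, and how 2 libraries became 1 column, is not given in the sources used here. Any multi-mapping rule would bear most on near-identical genes. All 10 members and the 55 genes of the other lists were matched by locus code to the TAIR10.1 annotation (RefSeq), which supplied names, exon lengths and sequences.

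Read totals were taken from values of up to 8 reads among 623 transfer RNA loci, 86 to 114 values per column. Of these values, 91.9% to 95.7% were whole within 0.05 of a read plus rounding. The totals were chosen to make this share high, so it is not a check of them. A count of 3 reads equals 0.0328 to 0.0361 RPKM at 1 kb. Approximate reads, RPKM times exon length times total, gave exact 95% intervals for levels (Poisson) and ratios (Clopper-Pearson). Differences used log2(RPKM + 0.5) with the background taken over genes averaging 5 RPKM or more. No test was possible on 1 column per group; limma, planned for 1 column per library, was not run. The code was tested on simulated data. Tools were Python 3.11.15, SciPy 1.17.1 and Biopython 1.88.

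Members, lists and the naming rule were chosen with earlier results of these data known. All members are named. Any gene of the regulator, FIT target and other deficiency lists could be named. Of storage only the 3 ferritins could be, and of the markers EXPA7, COBL9 and CASP1. The 5 most alike genes had the smallest Euclidean distance among non-members averaging 5 RPKM or more. Loci that overlap a member, and 3 further markers, were named after their values were seen. Alternatives were other pseudocounts, scalings, filters and a 1.5-fold limit.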

Additional observations from a re-analysis of the deposited data

Results flagged for a closer look

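FIT was the only one of the 10 genes for which upf3-1 went with opposite directions in the 2 backgrounds: 0.27 on the log2 scale with UPF1 intact and −1.55 in lba1, a difference between backgrounds of −1.82. Each ratio lay off 1 by more than counting error, at 1.24-fold higher (interval 1.09 to 1.41) and 3.63-fold lower (3.05 to 4.33). With 1 column per group the difference was not tested. The root epidermis markers, which sum to 51.9 RPKM in lba1 and 2.91 in lba1 upf3-1, moved with the lower value, and their part in it was not tested.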

How the results depend on the processing

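No paired analysis was possible because the deposited table holds 1 column per group, without replicates, and leaving out replicates was not possible for the same reason. Of 70 differences (10 genes in 7 comparisons), 48 were past 2-fold, and none of these changed sign under any pseudocount or scaling tried. A pseudocount of 1 brought 5 of the 48 under 2-fold and quantile normalization 2, and median scaling none. Of the 8 counted members, 4 were higher with cycloheximide than in mock, where 13.3% of all genes were. With a pseudocount of 1 there were 2, where 12.8% of all genes were higher, and BHLH39 was at 0.84 and AT1G47395 at 0.996. The number lower there was 0, where 44.1% of all genes were lower, a count that the low mock values limit. With a pseudocount of 0.1 it was 1, where 45.8% of all genes were lower, and BHLH38 was at −1.08. In lba1, 0 of the counted members were lower, where 1.93% of all genes were. With the limit at 1.5-fold 2 were lower, where 6.27% of all genes were. Quantile normalization alone put FRO2 in lba1 past the limit, at −1.11. The median of all genes in cycloheximide against mock was −0.81, and −0.10 with median scaling and −0.23 with quantile normalization. Depth limits BHLH38 with cycloheximide (12 reads) and IRT1 and BHLH100 in mock most.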
